A study of Pinus pinaster with 66 samples.

Results

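Mature needles of maritime pine, *Pinus pinaster*, were compared between January and March, the part of the year before the new needles emerge. The comparison used 18 of the 66 arrays: the 9 of January and the 9 of March, from Whorls 1, 2 and 3, and its value for a spot was the mean of the 3 differences March minus January, one within each whorl. Of the 8208 spots of the cDNA microarray, 7885 had a value in each of the 6 groups of month and whorl and were tested, and 7140 of these had a value on all 18 arrays. A whorl holds the needles of 1 year of growth, so that Whorl 1 grew in 2011, Whorl 2 in 2010 and Whorl 3 in 2009. All groups came from the same 6 field-grown trees, 20 to 25 years old, at 1245 m on a south-facing slope, with no treatment and no genotype given, and both harvests were made on day 30 of the month. RNA of the trees was pooled in pairs, which gave 3 replicates per group, and the 3 whorls of a month were cut from the same trees. Every array set Cy3-labelled RNA of 1 sample against a Cy5-labelled pool of January RNA, and the values were treated as log2 ratios of the sample to that pool. The base of the logarithm is not stated in the sources used here, and each fold change below rests on it.

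Needles of evergreen conifers live for several years and pass the winter on the tree. In winter they are cold-hardened, with changes in membrane lipids, soluble sugars, chaperones and protective proteins, and they lose this hardiness in spring before buds open. Auxin, made largely in growing shoots, acts by changing the transcription of several families of auxin-responsive genes, and isoprenoids and flavonoids make up much of the secondary metabolism of needles.

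Gene names are not part of the deposited table, and genes are given here by spot and by the study's own description. Of the 43 spots that it names, 39 have a described function. Of these 43 spots, 41 were tested, and the serine hydroxymethyltransferase Q1E13 and the undescribed Q13C16 had no value in at least 1 group. No photosynthesis gene is among the described spots, so the label of the tissue was not checked against markers. Positive values were taken to mean a higher transcript level in the sample than in the pool of January RNA. This direction is likely, but no source states it. The study reads its values as transcript abundance and labelled the pool with Cy5. It also reports that RT-qPCR of selected genes mostly correlated well with the arrays. In whole needles, fewer cells of a type and less RNA per cell cannot be told apart.

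Between January and March, 1224 spots were higher in March (15.5% of those tested) and 1258 were lower (16%), together 31.5% at an adjusted p under 0.05 in limma. Most of these differences were small. Their median size was 0.22 on the log2 scale, a 1.16-fold change, and 5% to 95% of them lay between 0.10 and 0.58. Only 60 spots rose and 149 fell by more than 0.5, and 2 rose and 10 fell by more than 1. The 9 March arrays lay wholly above the 9 January arrays at 67 spots (0.938% of the 7140 spots with 18 values) and wholly below them at 238 (3.33%). Of the called spots, 93.6% had the same sign in all 3 whorls, against 53.7% of all spots tested, although the call itself uses the mean of the 3 whorls.

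The whorls of a month come from the same trees, so the 9 arrays of a month are not 9 independent samples. With a random block for the arrays of 1 replicate number in 1 month (estimated correlation 0.225), 841 spots were higher (10.7%) and 894 lower (11.3%), together 22%, and each of these 1735 was called before with the same sign. Without any array of replicate 1 the total of 2482 fell to 1363, without replicate 2 to 1374 and without replicate 3 to 2266. Unless stated, the SE and adjusted p of each gene below come from the fit without this block, which takes the arrays as independent.

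A second feature of the values moved with the months. The number in a spot's name, which runs from 1 to 22, divided the spots into sets with different medians. March minus January had a positive median in each of the numbers 10 to 19 (0.02 to 0.09) and a negative median in each of the other 12 numbers (-0.08 to -0.04). The difference between the medians of these sets of spots, within an array, was -0.148 ± 0.046 (SD, n = 9) in January and -0.042 ± 0.032 (SD, n = 9) in March, and from -0.049 to 0.008 in the other months. Among the 3824 spots tested of numbers 10 to 19, 995 were higher and 332 lower, whereas among the 4061 other spots 229 were higher and 926 lower. When each array was centred on the median of each number, 917 spots were higher (11.6%) and 1121 lower (14.2%), together 25.8%, and 1603 of the 2482 calls remained with the same sign. What the number stands for is not given in the sources used here. Each gene below was therefore also fitted after this centring, and its call over the 3 whorls is given where it differs.

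**Figure D1:**
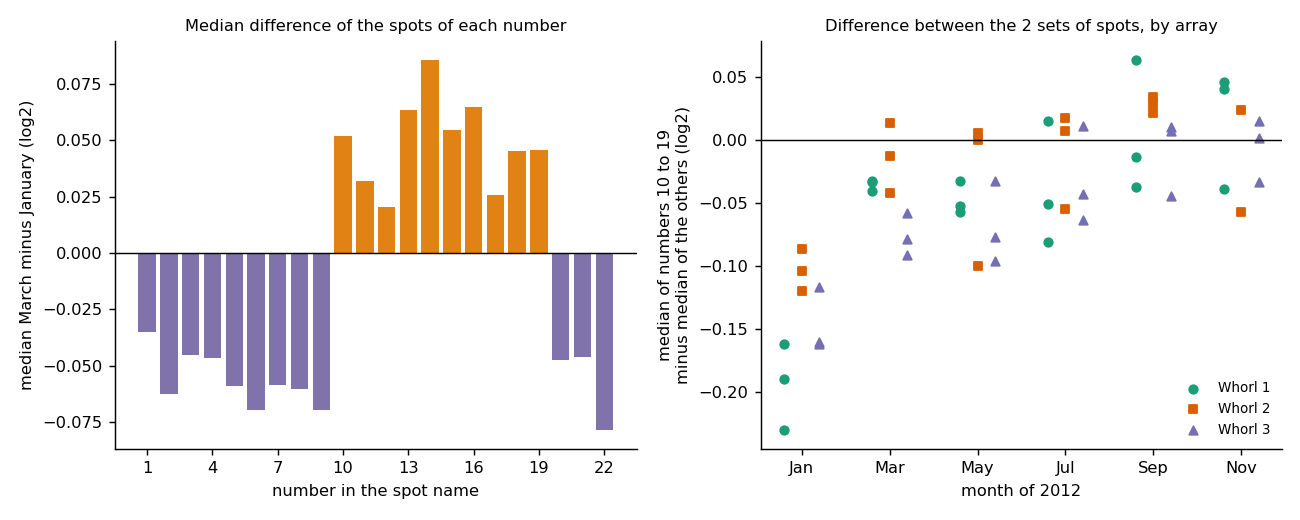
Left, median March minus January difference (log2) of the tested spots of each number in the spot name, with numbers 10 to 19 in orange and the others in purple. Right, median log2 ratio of the spots of numbers 10 to 19 minus that of the other spots on each array, by month, with colour and symbol for the whorl. All 9 January arrays lie between -0.23 and -0.09, and the 9 March arrays between -0.09 and 0.01.

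Of the 41 genes named by the study that were tested, 7 rose, 12 fell and 22 did not pass, against 15.5% and 16% of all spots. Because the study picked them from these arrays, their counts are not independent evidence. After centring by number 5 rose and 12 fell, with the random block 5 rose and 11 fell, and with both 3 rose and 10 fell, against 6.82% of all spots higher and 10.2% lower (17% in all). The members are described by role.

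**Figure D2:**
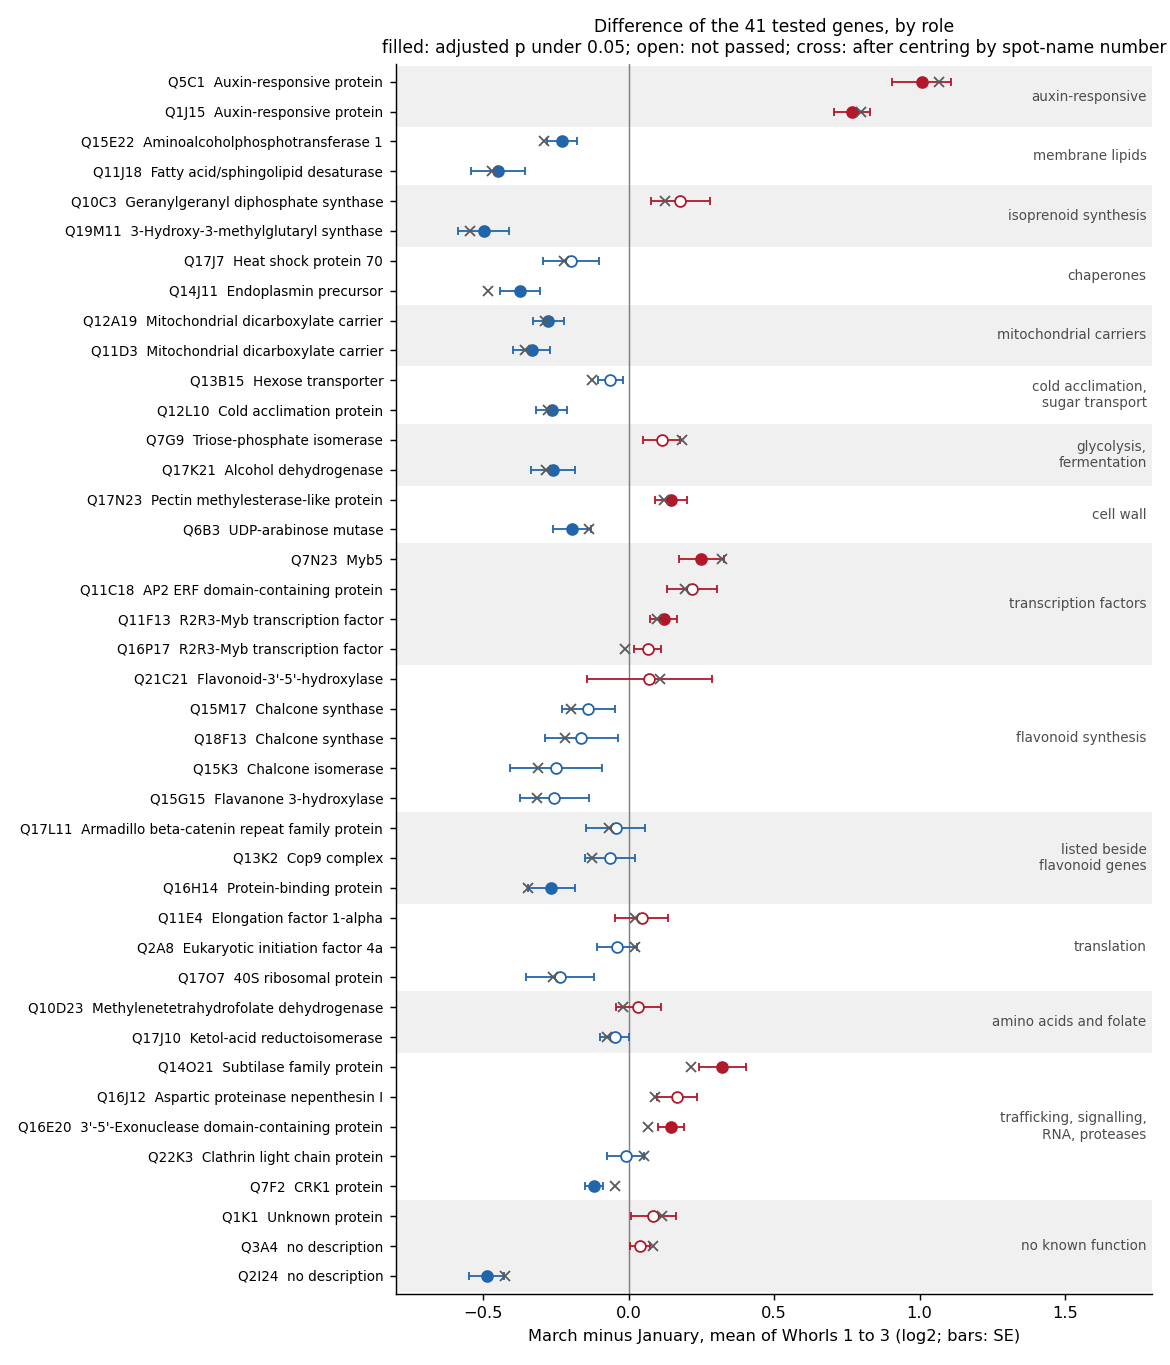
March minus January difference (log2, mean of Whorls 1 to 3) of the 41 tested genes that the study names, grouped by role. Points and bars are the estimate and its SE, filled points passed an adjusted p of 0.05, and crosses show the estimate after centring by spot-name number. The auxin-responsive genes lie farthest to the right, at 1.01 and 0.77, and the hydroxymethylglutaryl synthase Q19M11 farthest to the left, at -0.50.

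The 2 auxin-responsive genes had the largest increases among the named genes. Their description does not say to which family of auxin-responsive proteins they belong. The log2 ratio of Q5C1 was between 0.54 and 0.99 on the January arrays (median 0.80, n = 9) and between 1.37 and 2.05 on the March arrays (median 1.85, n = 9). That of Q1J15 was between 0.15 and 0.48 in January (median 0.31) and between 0.86 and 1.27 in March (median 1.12). In both genes the lowest March array lay above the highest January array. Q5C1 rose by 1.01 ± 0.10 (SE; 2.01-fold; adjusted p = 1.17e-10) and Q1J15 by 0.77 ± 0.06 (SE; 1.70-fold; adjusted p = 1.48e-13). Over all other settings of the fit, the random block among them, the highest adjusted p was 2.13e-05 for Q5C1 and 5.46e-06 for Q1J15. Both passed in every whorl taken alone. Q5C1 rose by 0.98 in Whorl 1, 0.71 in Whorl 2 and 1.33 in Whorl 3, and Q1J15 by 0.69, 0.64 and 0.97. The differences between whorls in these increases did not pass (F test, adjusted p = 0.423 and 0.465). Q5C1 stood at 0.79 ± 0.14 (SD, n = 9) above the January pool already in January, so the ratio of a spot in January is not a baseline of 0. Over all spots, 191 had a January mean beyond 0.5 in either direction.

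**Figure D3:**
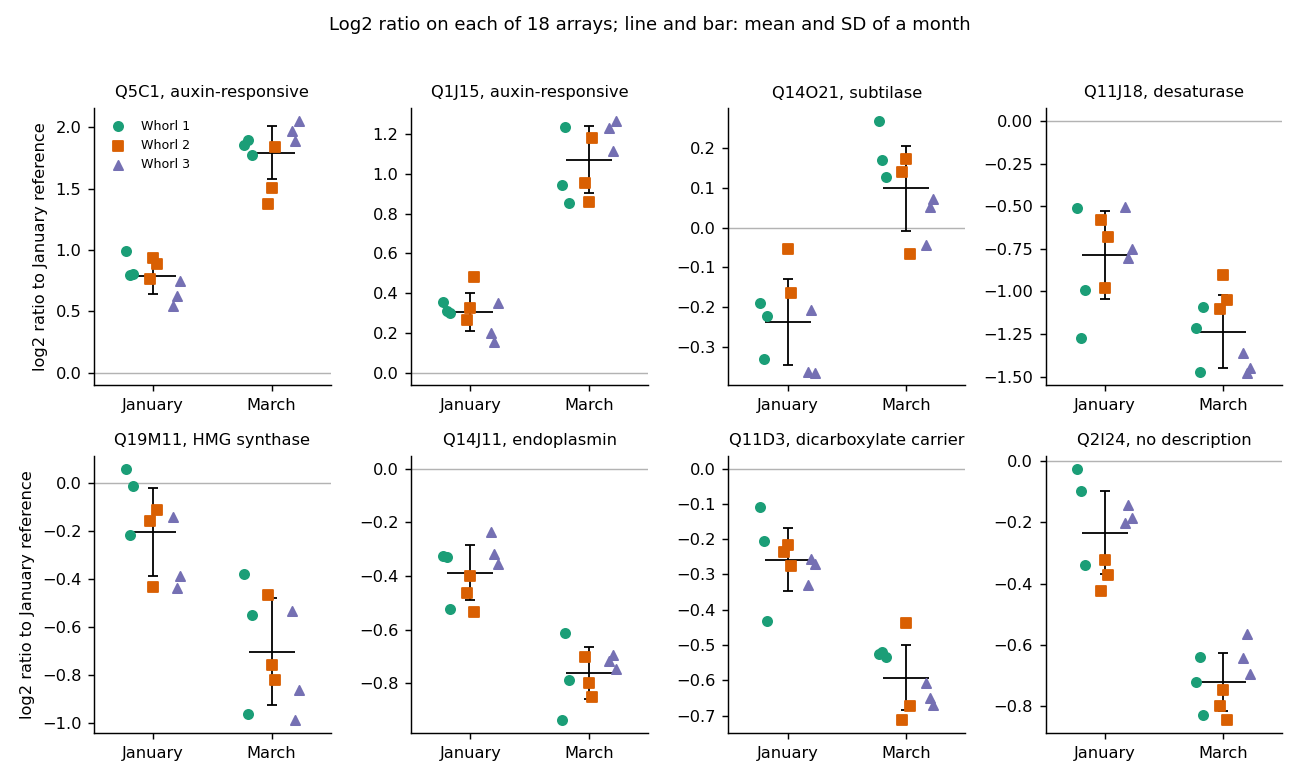
Log2 ratio to the January pool on each of the 18 arrays for 8 genes that rose or fell, with January and March side by side and colour and symbol for the whorl. Horizontal lines and bars are the mean and SD of the arrays of a month. In Q5C1 and Q1J15 all March arrays lie above all January arrays, and in Q14J11, Q11D3 and Q2I24 all lie below, while the months overlap in Q14O21, Q11J18 and Q19M11.

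Both genes of membrane lipid metabolism fell. The fatty acid/sphingolipid desaturase Q11J18, of a family that places double bonds in acyl chains, was between -1.27 and -0.50 in January (median -0.75) and between -1.48 and -0.90 in March (median -1.21). The months overlapped, but all 9 March arrays lay below the January median. The share of all spots with every March array on 1 side of the January median is not given. Here and for the genes below, this trait is a description only. Q11J18 fell by 0.45 on the log2 scale (SE 0.09, 9 arrays from 3 pools in each month, adjusted p = 0.000235). The drop was -0.74 in Whorl 3 (adjusted p = 0.00147) and -0.33 and -0.27 in Whorls 1 and 2, where it did not pass, and the difference between whorls did not pass either (adjusted p = 0.518). It was -0.33 without replicate 1 (adjusted p = 0.0520) and -0.28 after quantile normalization (adjusted p = 0.0723), so that its call ended under both. The aminoalcoholphosphotransferase Q15E22, which attaches choline or ethanolamine head groups in the last step of phospholipid synthesis, was between -0.49 and -0.18 in January (median -0.30) and between -0.74 and -0.38 in March (median -0.53). It fell by 0.23 on the log2 scale (SE 0.05, adjusted p = 0.000667), with all 9 March arrays below the January median. Without replicate 1 its difference was -0.18 (adjusted p = 0.0532).

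The isoprenoid genes did not move alike. The 3-hydroxy-3-methylglutaryl synthase Q19M11, an early enzyme of the mevalonate pathway, was between -0.44 and 0.06 in January (median -0.16) and between -0.99 and -0.38 in March (median -0.76). Its 9 March arrays all lay below the January median, with overlap only at the edges of the ranges. Q19M11 fell by 0.50 (SE 0.09, adjusted p = 1.34e-05), the largest drop among the described genes tested, with -0.58 in Whorl 1, -0.45 in Whorl 2 and -0.47 in Whorl 3. The geranylgeranyl diphosphate synthase Q10C3, which makes the precursor of diterpenes and carotenoids, was between -0.74 and 0.24 in January (median -0.28) and between -0.44 and 0.42 in March (median -0.19). Its difference of 0.18 ± 0.10 (SE) did not pass (adjusted p = 0.179, 95% interval -0.03 to 0.38). It passed when only the 18 arrays were fitted (adjusted p = 0.0319), after quantile normalization (0.27, adjusted p = 0.0380) and with array weights (0.22, adjusted p = 0.0291).

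Of the chaperones, the endoplasmin precursor Q14J11, an HSP90-family protein of the endoplasmic reticulum, was between -0.53 and -0.24 in January (median -0.36) and between -0.94 and -0.61 in March (median -0.74). The months did not overlap. Q14J11 fell by 0.37 (SE 0.07, adjusted p = 4.68e-05), with -0.39 in Whorl 1, -0.32 in Whorl 2 and -0.42 in Whorl 3. The HSP70 chaperone Q17J7 was between -0.21 and 0.01 in January (median -0.11) and between -0.51 and -0.20 in March (median -0.28). All 9 March arrays lay below its January median and its difference was -0.20 ± 0.10 (SE), but it did not pass in the fit over all 65 arrays (adjusted p = 0.109). It passed when only the 18 arrays were fitted (adjusted p = 0.00313) and with array weights (adjusted p = 0.0255).

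Both spots described as a mitochondrial dicarboxylate carrier, which exchanges malate and related acids across the inner membrane, fell. Q11D3 was between -0.43 and -0.11 in January (median -0.26) and between -0.71 and -0.44 in March (median -0.61), without overlap. Q12A19 was between -0.32 and 0.03 in January (median -0.23) and between -0.64 and -0.32 in March (median -0.50), and all 9 March arrays lay below the January median. They fell by 0.33 (SE 0.06, adjusted p = 7.01e-05) and 0.28 (SE 0.05, adjusted p = 8.43e-05). Sequences of the spots were not used here, so it is not known whether these spots measure separate genes.

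The cold acclimation protein Q12L10, of a group named for its induction in the cold, was between -0.20 and 0.06 in January (median -0.07) and between -0.41 and -0.22 in March (median -0.31). The lowest January array lay just above the highest March array. Q12L10 fell by 0.26 (SE 0.05, adjusted p = 0.000130). The hexose transporter Q13B15, which carries monosaccharides across membranes, was between -0.12 and 0.10 in January (median 0.03) and between -0.16 and 0.01 in March (median -0.06). Its difference of -0.06 ± 0.04 (SE) did not pass (adjusted p = 0.280), but after centring by number it was -0.13 and passed (adjusted p = 0.0202).

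Alcohol dehydrogenase Q17K21, which interconverts acetaldehyde and ethanol and marks fermentation, was between -0.80 and -0.53 in January (median -0.64) and between -1.11 and -0.74 in March (median -0.87). All 9 March arrays lay below the January median. Q17K21 fell by 0.26 (SE 0.08, adjusted p = 0.00654). The call ended without replicate 1 (-0.25, adjusted p = 0.0619), without replicate 2 (-0.24, adjusted p = 0.108) and after quantile normalization (-0.11, adjusted p = 0.293). The glycolytic triose-phosphate isomerase Q7G9 was between -0.46 and -0.03 in January and between -0.44 and 0.26 in March. Its difference of 0.11 ± 0.06 (SE) did not pass (adjusted p = 0.183), but it passed after centring (0.18, adjusted p = 0.0294) and after quantile normalization (0.15, adjusted p = 0.0493).

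The 10 genes that the study lists for Rain hold Q5C1, the genes of lipids, carriers, chaperones, HMG synthase and alcohol dehydrogenase above, and the undescribed Q2I24. Of these 10, 8 fell, 1 rose (Q5C1) and 1 did not pass (Q17J7), against 16% of all spots lower and 15.5% higher, and their median was -0.30 against -0.01 over all spots tested. The counts were the same with the random block, after centring and with both, where 10.2% of all spots were lower and 6.82% higher. This list was chosen on these arrays and its direction is not independent evidence. Q2I24, which has no description, was between -0.42 and -0.02 in January (median -0.20) and between -0.85 and -0.56 in March (median -0.72), without overlap. It fell by 0.49 (SE 0.06, adjusted p = 1.26e-08), and it passed in each whorl (-0.58, -0.43 and -0.46).

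The differences of the genes of the cell wall were small. UDP-arabinose mutase Q6B3, an enzyme that makes the arabinose donor for wall polysaccharides, was between -0.23 and 0.30 in January (median 0.07) and between -0.60 and 0.13 in March (median -0.06). Its difference was -0.19 ± 0.07 (SE, adjusted p = 0.0188). Without replicate 1 it was -0.08 (adjusted p = 0.471). The call also ended when the 3 whorls of a pool were averaged before the fit, here called pool means (adjusted p = 0.118), when only the 18 arrays were fitted (adjusted p = 0.0639), with the random block (adjusted p = 0.0620), after centring (-0.14, adjusted p = 0.0856), without March Whorl 2 replicate 1 (-0.14, adjusted p = 0.0884) and without January Whorl 3 replicate 1 (-0.17, adjusted p = 0.0527). The pectin methylesterase-like protein Q17N23, of a family that removes methyl groups from pectin, was between -0.33 and -0.11 in January (median -0.24) and between -0.22 and 0.13 in March (median -0.10). Its difference was 0.15 ± 0.05 (SE, adjusted p = 0.0364). Without replicate 1 it was 0.09 (adjusted p = 0.194), and it did not pass without replicate 2 (adjusted p = 0.173), with pool means (adjusted p = 0.116), with the random block (adjusted p = 0.104), after centring (adjusted p = 0.130) or without 1 of 10 single arrays in turn.

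Among the transcription factors, Myb5 Q7N23 rose. Its log2 ratio was between -0.03 and 0.52 in January (median 0.17) and between 0.30 and 0.75 in March (median 0.40), and all 9 March arrays lay above the January median. The rise was 0.25 ± 0.08 (SE; 1.19-fold; adjusted p = 0.00986), close in size in the 3 whorls (0.28, 0.25 and 0.22), and 0.32 after centring (adjusted p = 0.000576). Without replicate 2 it was 0.20 (adjusted p = 0.230), and with pool means it did not pass either (adjusted p = 0.0846). The R2R3-Myb factor Q11F13 was between -0.15 and 0.12 in January and between -0.08 and 0.24 in March. Its difference of 0.12 ± 0.05 (SE, adjusted p = 0.0398) was 0.05 without replicate 1 (adjusted p = 0.556). It did not pass without replicate 3 (adjusted p = 0.0673), with pool means (adjusted p = 0.146), with the random block (adjusted p = 0.130), after centring (adjusted p = 0.0791), after quantile normalization (adjusted p = 0.0794), with array weights (adjusted p = 0.0503) or without 1 of 11 single arrays in turn. The R2R3-Myb factor Q16P17 (0.07 ± 0.05, adjusted p = 0.282) and the AP2 ERF domain-containing protein Q11C18 (0.22 ± 0.09, adjusted p = 0.0595) did not pass. Q11C18 had values on 6 January and 8 March arrays, and passed after quantile normalization (adjusted p = 0.0485) and with array weights (adjusted p = 0.00288).

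The subtilase Q14O21, of a family of secreted serine proteases, rose. It was between -0.36 and -0.05 on 8 January arrays (median -0.22) and between -0.07 and 0.27 on 9 March arrays (median 0.13). The rise was 0.32 ± 0.08 (SE; 1.25-fold; adjusted p = 0.00341), and all 9 March arrays lay above the January median. It was 0.21 after centring (adjusted p = 0.0305) and did not pass with centring and the random block together (adjusted p = 0.0901). The aspartic proteinase Q16J12, another protease, had a difference of 0.17 ± 0.07 (SE) that did not pass (adjusted p = 0.0603), but did when only the 18 arrays were fitted (adjusted p = 0.0175), with array weights (adjusted p = 0.0246) and without replicate 1 (adjusted p = 0.0275). The exonuclease domain-containing protein Q16E20, a nucleic acid-degrading enzyme by its name, was between -0.36 and -0.10 in January (median -0.20) and between -0.27 and 0.18 in March (median -0.09). Its difference of 0.15 ± 0.04 (SE, adjusted p = 0.00795) became 0.07 after centring (adjusted p = 0.266). Its call was also lost with pool means (adjusted p = 0.0520), without replicate 1 (0.12, adjusted p = 0.0851) and without replicate 3 (0.12, adjusted p = 0.151). The CRK1 protein Q7F2 was between 0.22 and 0.54 in January and between 0.08 and 0.41 in March, and its difference of -0.12 ± 0.03 (SE, adjusted p = 0.00363) became -0.05 after centring (adjusted p = 0.291). Without replicate 3 it was -0.07 (adjusted p = 0.244), and its call was also lost with pool means (adjusted p = 0.106) and without replicate 1 (adjusted p = 0.129). The spots Q16E20 and Q7F2 lie in different sets of spot-name numbers, 16 and 7, and each difference had the sign of its set's median. Some other called genes had the sign opposite to their set's median, among them Q5C1, Q1J15, Q14J11 and Q11D3. Whether the offset between the sets accounts for any of these differences was not tested.

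The clathrin light chain Q22K3, part of the coat of endocytic vesicles, did not pass at -0.01 ± 0.06 (SE, adjusted p = 0.924). The translation genes did not pass either. Elongation factor 1-alpha Q11E4, which delivers aminoacyl-tRNA to the ribosome, was between -0.95 and -0.22 in January and between -0.77 and -0.34 in March, a difference of 0.04 ± 0.09 (SE, adjusted p = 0.748, 95% interval -0.14 to 0.23). Initiation factor 4a Q2A8, an RNA helicase, had -0.04 ± 0.07 (SE, adjusted p = 0.683). Among the enzymes of amino acids and folate, ketol-acid reductoisomerase Q17J10, of branched-chain amino acid synthesis, had -0.05 ± 0.05 (SE, adjusted p = 0.484). Methylenetetrahydrofolate dehydrogenase Q10D23, which handles one-carbon units, had 0.03 ± 0.08 (SE, adjusted p = 0.770). Q1K1, described as an unknown protein, and Q3A4, with no description, did not pass at 0.09 ± 0.08 (SE, adjusted p = 0.427) and 0.04 ± 0.03 (SE, adjusted p = 0.395). Of the 10 genes that the study lists for Temperature, 2 rose (Q16E20 and Q17N23), 1 fell (Q6B3) and 7 did not pass, a share near the 31.5% called over all spots. With the random block 1 rose, Q16E20, after centring 1 rose, Q7G9, and with both none of the 10 passed. The study chose this list, too, on these arrays.

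Of the 5 flavonoid genes, none passed in the mean over whorls and 2 fell within Whorl 1, where 10.2% of all spots were lower. In January, the arrays of Whorl 1 lay above those of Whorls 2 and 3 in all 5. The study lists all 5 for Whorl, chosen on these arrays, so this order of the whorls is not independent evidence. Chalcone synthase Q15M17, which makes the first flavonoid precursor, was 0.48, 0.68 and 0.34 on the Whorl 1 arrays of January and 0.24, 0.01 and -0.06 on those of March. The other chalcone synthase, Q18F13, was 0.60, 0.96 and 0.36 in January and 0.22, 0.22 and -0.19 in March. Thus in both genes the 3 January values exceeded the 3 March values.

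Chalcone isomerase Q15K3, which closes the flavonoid ring, was 0.62, 0.50 and 0.02 on the Whorl 1 arrays of January and -0.02, -0.26 and -0.60 on those of March. Flavanone 3-hydroxylase Q15G15, which acts on the path to flavonols and anthocyanins, was 0.70, 0.81 and 0.17 in January and 0.23, -0.04 and -0.35 in March. The flavonoid-3'-5'-hydroxylase Q21C21, which adds hydroxyl groups to the B ring, was 0.83, 0.93 and 0.25 in January and 0.46, -0.36 and -0.07 in March. Replicate 3 of January was the lowest of its group in all 5 genes, and in Q15G15 and Q21C21 it lay below the highest March value.

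Within Whorl 1, the differences were -0.44 ± 0.16 for Q15M17 (SE, adjusted p = 0.0377) and -0.61 ± 0.21 for Q15G15 (SE, adjusted p = 0.0283), which passed. Those of Q18F13 (-0.56, adjusted p = 0.0587), Q15K3 (-0.67, adjusted p = 0.0700) and Q21C21 (-0.66, adjusted p = 0.190) did not. After centring Q18F13 passed too (-0.62, adjusted p = 0.0449). In Whorls 2 and 3 the 4 genes other than Q21C21 differed by between -0.13 and 0.15, Q21C21 differed by 0.67 and 0.21, and none passed. In the fit without the random block, the test of a difference between whorls did not pass for any of the 5 (adjusted p from 0.416 to 0.613). This fit did not show a change particular to Whorl 1, and it makes no use of the trees that whorls share. Over all spots the test called 73 without the random block and 273 with it. In the mean over whorls Q15G15 passed after centring (-0.32, adjusted p = 0.0457) and with array weights (-0.23, adjusted p = 0.0493).

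**Figure D4:**
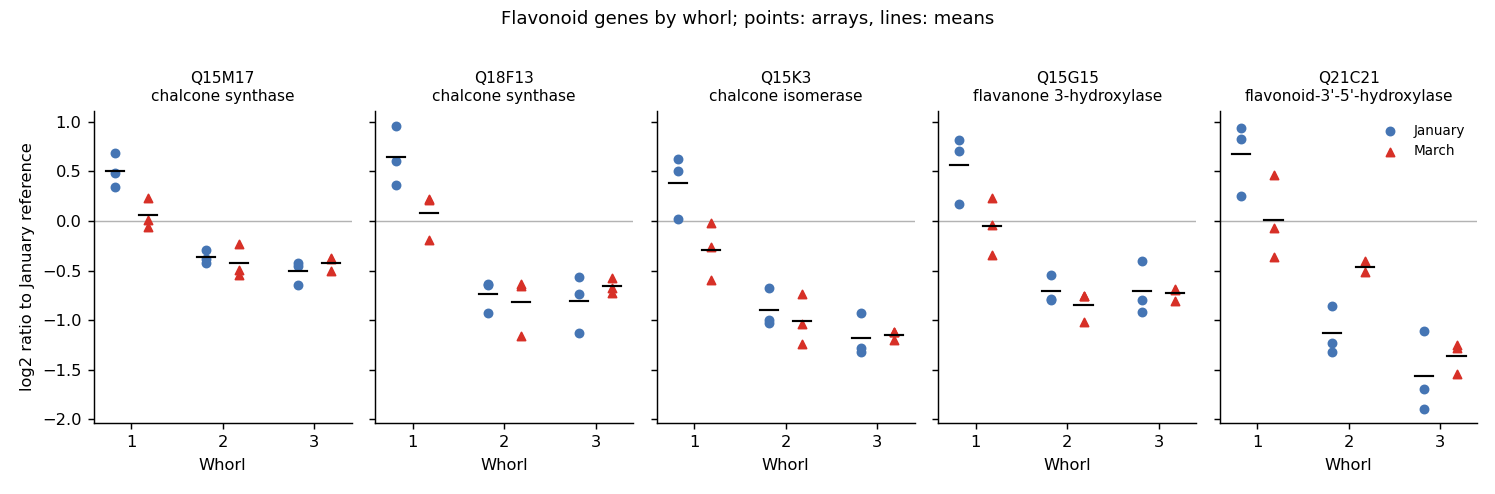
Log2 ratio to the January pool of the 5 flavonoid genes by whorl, with January as blue circles and March as red triangles. Each point is an array and each line the mean of a group. In Whorl 1 the March means lie below the January means in every panel, by 0.44 to 0.67, while in Whorls 2 and 3 the means of the months lie close together except for Q21C21 in Whorl 2, where March has 2 values.

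The study lists 5 other genes beside the flavonoid genes for Whorl, and 2 of them fell within Whorl 1. The 40S ribosomal protein Q17O7, a part of the small ribosomal subunit, differed by -0.69 in Whorl 1 (adjusted p = 0.0123), and the protein-binding protein Q16H14 by -0.56 (adjusted p = 0.00361). Over the whorls, Q17O7 did not pass (-0.24 ± 0.12, adjusted p = 0.120). Q16H14 fell by 0.27 (SE 0.08, adjusted p = 0.00948), but without replicate 2 it was -0.24 and did not pass (adjusted p = 0.122), nor with pool means (adjusted p = 0.102). The Cop9 complex gene Q13K2, of a complex that regulates ubiquitin ligases, had -0.29 in Whorl 1 (adjusted p = 0.172) and 0.24 in Whorl 2 (adjusted p = 0.424), and the armadillo repeat protein Q17L11 had -0.28 in Whorl 1 (adjusted p = 0.266). Their means over whorls were -0.06 and -0.04 and did not pass. The geranylgeranyl diphosphate synthase Q10C3 above, also on this list, had 0.07 in Whorl 1 (adjusted p = 0.818). Of the 10 genes listed for Whorl, 4 fell within Whorl 1 against 10.2% of all spots, 0 in Whorl 2 against 3.78% and 0 in Whorl 3 against 5.85%. None rose, against 10.4%, 1.5% and 4.31% of all spots in the 3 whorls. The study chose this list on these arrays.

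Across all spots, 1626 were called within Whorl 1 (822 higher and 804 lower, 20.6%), 416 within Whorl 2 (118 higher and 298 lower, 5.28%) and 801 within Whorl 3 (340 higher and 461 lower, 10.2%). After centring by spot-name number the counts were 1113 in Whorl 1, 338 in Whorl 2 and 712 in Whorl 3. The median size of a difference was 0.13, 0.09 and 0.09 in the 3 whorls, with a median SE of 0.09 in each. The differences of the whorls had r of 0.58 to 0.62 across the 7885 spots, a description only, since the whorls come from the same trees and share the scale of each month. These unequal counts do not show that the whorls changed differently. The test of that difference called 73 spots (0.926%), with the largest change in Whorl 1 at 32 spots, in Whorl 2 at 12 and in Whorl 3 at 29, and none of the 41 genes named by the study was among them. This count was 39 without replicate 1, 6 without replicate 2 and 31 without replicate 3, and ranged from 22 to 353 over the other settings.

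Of the spots without a description, Q11D6 had the largest excess of Whorl 3 over Whorl 1. On the Whorl 3 arrays it was -0.22, -0.15 and -0.24 in January and 1.21, 1.30 and 1.27 in March. On the Whorl 1 arrays it was -0.49, -0.47 and -0.46 in January and -0.29, 0.15 and 0.11 in March. It thus rose in both whorls, by 1.46 in Whorl 3 and 0.46 in Whorl 1, and by 0.62 in Whorl 2. The excess was 1.00 (adjusted p = 0.00776, in a contrast that called 0.533% of spots, 20 higher (0.254%) and 22 lower (0.279%), or 7 and 17 after centring) and did not pass without replicate 1, 2 or 3 (adjusted p = 0.114, 0.0542 and 0.0919). Q5K3 was -0.39, -0.32 and -0.09 on the Whorl 3 arrays of January and 0.64, 0.68 and 0.75 on those of March, a rise of 0.96, against 0.04 in Whorl 1 and -0.05 in Whorl 2. Its excess of 0.92 (adjusted p = 0.00776) did not pass without replicate 1 or 2 (adjusted p = 0.114 and 0.401). Both spots were picked by their excess, so its size and adjusted p are not independent evidence.

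The spots without a description that moved most were taken from the called spots with 18 values and 1 sign in all whorls. They were picked by the size of their difference, so that size and its adjusted p are not independent evidence. Q2O12 was between -0.89 and 0.38 in January (median -0.53) and between 0.25 and 0.90 in March (median 0.78), and Q18E6 between -1.31 and 0.11 (median -0.16) and between 0.36 and 1.11 (median 0.80). They rose by 1.04 ± 0.11 (SE, adjusted p = 1.09e-09) and 0.97 ± 0.17 (SE, adjusted p = 1.28e-05). Q17C2 was between 0.72 and 1.18 in January (median 1.00) and between -0.64 and 0.04 in March (median -0.41). Q14I11 was between -0.88 and 0.03 in January (median -0.60) and between -2.28 and -1.81 in March (median -2.04). In both genes all March arrays lay below all January arrays. Q17C2 fell by 1.33 (SE 0.07; 2.52-fold; adjusted p = 1.77e-20) and Q14I11 fell by 1.55 (SE 0.20; 2.92-fold; adjusted p = 2.9e-08). Over all other settings of the fit, the random block among them, the highest adjusted p was 6.04e-07 for Q17C2 and 0.000621 for Q14I11.

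The step from January to March had the smallest median size of the steps compared, which run from January to November. Over the 7276 spots with a value in every group of Whorls 1 to 3, it had a median size of 0.08 and 32.1% of the spots called. The following steps had 0.15 and 60.6% (March to May), 0.09 and 35.1% (May to July), 0.11 and 45.1% (July to September) and 0.14 and 59% (September to November). After centring by number, January to March had 0.07 and 26.8%. The count of called spots was 2332 for January to March and 2554 for May to July. After quantile normalization this order turned, with 2332 and 2191. The step from March to May differed from that of January to March at 3660 of 7799 spots (46.9%; 1916 higher and 1744 lower). Both steps share the March arrays, so their values are given side by side.

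The 2 auxin-responsive genes stood highest of the 6 months in March. Q5C1 was at 1.79 ± 0.22 (SD, n = 9) in March and 1.21 in May, and -0.72 in November. Its change from March to May, -0.59 ± 0.10 (SE, adjusted p = 2.94e-06), was opposite to that from January to March, and the 2 steps differed by -1.59 (adjusted p = 4e-10). Q1J15 changed by -0.21 ± 0.06 (SE, adjusted p = 0.00327) from March to May. The desaturase Q11J18 changed by -0.45 and then by -0.56 ± 0.09 (SE, adjusted p = 1.49e-06), with no difference between the steps that passed (adjusted p = 0.590), and HMG synthase Q19M11 by -0.50 and then -0.22 ± 0.09 (SE, adjusted p = 0.0222).

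The differences of the carriers changed sign between the steps, which share the March arrays. After their drop to March, Q11D3 changed by 0.16 ± 0.06 (SE, adjusted p = 0.0332) and Q12A19 by 0.23 ± 0.05 (SE, adjusted p = 0.000219) from March to May. Alcohol dehydrogenase Q17K21 changed by 0.23 ± 0.08 (SE, adjusted p = 0.00815) and Myb5 Q7N23 by -0.39 ± 0.08 (SE, adjusted p = 2.96e-05), each against its earlier direction. For each of these 4 genes the difference between the steps passed (adjusted p from 1.49e-05 to 0.00192).

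Several genes with little difference between January and March changed by more from March to May. All those given here are on the Temperature list, which the study chose on these arrays by correlation with temperature. A large change toward May is therefore not independent evidence. Elongation factor Q11E4 changed by 1.21 ± 0.09 (SE, adjusted p = 3.2e-15), clathrin light chain Q22K3 by 0.99 ± 0.06 (SE, adjusted p = 1.83e-17) and triose-phosphate isomerase Q7G9 by 0.86 ± 0.06 (SE, adjusted p = 2.3e-15). UDP-arabinose mutase Q6B3 changed by 1.07 ± 0.07 (SE, adjusted p = 2.54e-18) after its difference of -0.19 to March. The 2 steps differed in each of these genes (adjusted p from 1.46e-12 to 4.66e-07).

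**Figure D5:**
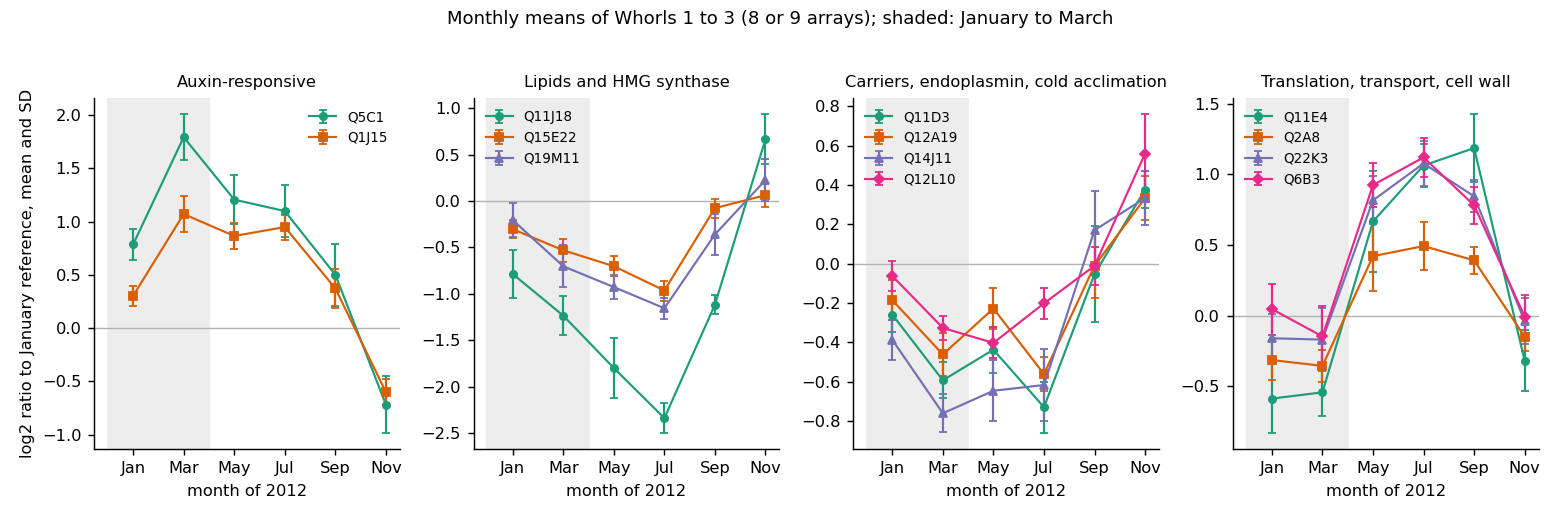
Monthly mean log2 ratio to the January pool of 13 genes over the arrays of Whorls 1 to 3, with bars for the SD and the January to March step shaded. Q5C1 and Q1J15 are highest in March, at 1.79 and 1.07, Q11J18 declines from -0.79 in January to -2.34 in July, and the 4 genes of the right panel lie higher in May than in March.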

How the data were processed

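Total RNA of needles was amplified, labelled and hybridized by the authors to a cDNA array with 8208 spots, and scanned with a GenePix instrument. The deposited values are log ratios (treated as log2 here), which the authors preprocessed and normalized with BABAR, an R package made for arrays that share a reference. Neither the base of the logarithm nor the direction of the ratio is stated in the sources used here, and the values were treated as log2 ratios of sample (Cy3) over the January pool (Cy5). Each array's median lies at 0, so centring is known, while scale and direction are not stated. The filter behind missing values is not given in the sources used here. A month label of the reference channel names other months in part of the samples, and January was taken, as in its source label and the methods. January arrays had values for 7706 to 8031 spots and March arrays for 7586 to 8035. Precision is limited by how few arrays a group has. The lowest correlation between any pair of the 66 arrays was -0.245 and, among the 18 used here, 0.141.

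Spots with at least 1 value in each of the 6 groups entered limma 3.58.1 in R 4.3.3, and 323 did not. The fit had 1 mean for each of 22 groups and 65 arrays, without November Whorl 2 replicate 2, as in the study's network analysis. The log2 differences were tested two-sided and adjusted by Benjamini-Hochberg over all spots tested, and called at 0.05. Adjusted p-values of whorl contrasts, steps and the F test come from this fit. So do the SE and adjusted p of each gene, without the random block unless stated. The replicates are 3 pools of the same 6 trees, so p-values measure the spread between these pools and arrays. The scripts were tested on simulated data with independent errors on each array. These data held neither the correlation between whorls of a pool nor the offset between spot-name numbers. The test therefore does not cover the error rate of the main fit under these features.

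The text names the 43 spots given by the study and, of undescribed spots, the 2 that rose most and the 2 that fell most among called spots with 18 values and 1 sign in all whorls, with the same for Whorl 3 minus Whorl 1. The genes and lists were chosen with earlier results of these data known. Alternatives were quantile normalization, array weights, only spots with 18 values, only the 18 arrays, the array left out kept, means of each pool, fixed and random blocks, and leaving out replicates and single arrays. Centring by spot-name number was added after the data were seen. Figures were drawn with Python 3.11.15 and matplotlib.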

Additional observations from a re-analysis of the deposited data

Results flagged for a closer look

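The change from January to March differed between Whorls 1, 2 and 3 at 73 spots (F test in limma, adjusted p under 0.05). The number depends on which replicates enter, and was 6 without replicate 2.

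In 4 spots without a description, the change passed the test of a difference between Whorl 3 and Whorl 1. They were picked as the largest differences Whorl 3 minus Whorl 1, in either direction, among spots called in this contrast with 18 values. Their size and adjusted p are therefore not independent evidence. Q11D6 had 1.00 (adjusted p = 0.00776) and Q5K3 0.92 (adjusted p = 0.00776), with the larger rise in Whorl 3. Q11I8 had -1.28 (adjusted p = 0.0451), with 0.56 in Whorl 1 and -0.73 in Whorl 3. It did not pass after centring by spot-name number (-1.18, adjusted p = 0.0837), when only the 18 arrays were fitted (adjusted p = 0.0683), or without 1 of 10 single arrays in turn. Q19J18 had -0.86 (adjusted p = 0.0256), with 0.54 in Whorl 1 and -0.32 in Whorl 3. January Whorl 1 replicate 1 stood at -1.42, below the other arrays of its group (-0.70 and -0.51), and without it Q19J18 had -0.59 (adjusted p = 0.159). Its call also ended without January Whorl 3 replicate 1, March Whorl 3 replicate 2 or March Whorl 3 replicate 3 (-0.78, -0.82 and -0.83; adjusted p = 0.0656, 0.0600 and 0.0634). None of the 4 passed without replicate 1 or without replicate 2. The cause was not tested.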

How the results depend on the processing

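The 2482 spots called between January and March became 1335 with the means of 3 pools against 3 and 1342 with centring by spot-name number and the random block together, and lay between 1363 and 2609 when a replicate or an array was left out. The other totals moved by less than 1.5 times, among them 2483 after quantile normalization (1287 higher and 1196 lower). Within Whorl 1 the leave-outs gave 467 to 1520 spots, within Whorl 2 122 to 344 and within Whorl 3 231 to 504, and array weights gave 2198 in Whorl 3. For the difference between whorls (73 spots), quantile normalization gave 214, spots with 18 values 45, only the 18 arrays 22, the random block 273, array weights 353, centring 47, centring with the random block 161 and the leave-outs 6 to 39. For Whorl 3 minus Whorl 1 (42 spots, 20 higher and 22 lower) the same settings gave 121, 27, 10, 185, 377, 24 (7 higher and 17 lower), 109 and 1 to 13. The step from January to March (2332 spots) gave 1224 with pool means and 1268 to 2027 in the leave-outs, and that from May to July (2554) 1454 and 1401 to 2202. The cause was not tested.

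Replicate numbers are shared by the groups, but the sources do not say which trees make which pool. A figure legend of the study gives the replicate number as an individual. Deviations of same-numbered January and March arrays of a whorl correlated at -0.005 to 0.428, above 0.1 in 7 of 9 pairs. In 7 of the 9 the best partner had the same number. The main fit did not pair the samples by number, a choice that these values do not require. Whether same-numbered arrays of both months share trees was not settled. The random block and the pool means take a number as the same pool across the whorls of a month. With the replicate number as a block, 2622 spots were called.

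Of 27 named results that passed, 12 passed under each of up to 33 alternatives, and of 22 that did not, 14 passed under none. The sign of 9 that did not pass turned. Quantile normalization turned Q15K3 (0.033), Q17L11 (0.10), Q13K2 (0.076), Q2A8 (0.012) and Q22K3 (0.0067). Centring turned Q2A8 (0.022), Q16P17 (-0.014), Q10D23 (-0.019) and Q22K3 (0.053), with or without the random block, and array weights Q22K3 (0.061). In the leave-outs Q22K3 ranged from -0.10 to 0.061, Q11E4 from -0.049 to 0.13, Q21C21 from -0.0040 to 0.15 and Q10D23 from -0.013 to 0.073. No signal over background was used here, so its limit on dim spots is not known.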
